A study of Mus musculus with 19 samples.

Results

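The 7 sirtuin genes (Sirt1 to Sirt7), Nampt, Cd38 and Nnmt were followed through brown adipose tissue (BAT) of young and old mice kept at room temperature or in the cold. The members were the rows of the deposited expression table that carry these gene symbols, and all 10 were found among its 20554 genes. Sirtuins are enzymes that remove acetyl and related groups from proteins and use up NAD+ in doing so, each reaction releasing nicotinamide. Nampt is the rate-limiting enzyme that turns nicotinamide back into NAD+, Cd38 splits NAD+ at the cell surface and inside cells, and Nnmt methylates nicotinamide and so takes it out of the salvage route. BAT burns fuel to make heat when animals are cold, and NAD+ is the electron acceptor of the oxidative reactions that feed its mitochondria.

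RNA-seq was performed on 19 BAT libraries, 1 column per library. All mice were wild type male C57BL6J mice, singly housed without food or bedding during the exposure. Young mice (3 months) were kept at 24°C (room temperature, 5 libraries) or 4°C (cold, 5 libraries), and old mice (24 months) at 24°C (5 libraries) or 4°C (4 libraries). The treatment text of the labels gives 5 hr of exposure, as does the study's text on this experiment, whereas the labels' design text gives 24 hr, and fasting was shared by all groups. Values are log2(TPM + 1), where TPM is an abundance scaled for the length of the transcripts and the size of the library, so that levels of different genes in a library can be compared in TPM. The values summed to between 128942 and 211321 TPM over the listed genes of a library, lowest in old cold replicate 4, so the listed genes do not fill a whole TPM scale and a level is relative to a total that differs between libraries. A log2 difference of a gene near or under 1 TPM is smaller than the difference of its TPM values.

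Libraries stood apart in 2 ways that bear on these genes. The predicted gene Gm20594 was listed at between 2391 and 2504 TPM in young room temperature replicate 2, old room temperature replicate 1 and old cold replicates 1 and 2, whereas the other 15 libraries had between 33784 and 72030 TPM. On average 8 of the 10 genes were higher in those 4 libraries than in the other 15. Sirt5 was higher by 0.76, Sirt3 by 0.60, Cd38 by 0.48 and Sirt7 by 0.42 on the log2 scale, while Nampt (-0.02) and Nnmt (-0.37) were not. These averages ignore the groups, and no young cold library was among the 4. Against the median of the other libraries in their own group, all 4 were higher for Sirt3, Sirt5 and Sirt7. For Cd38 3 of the 4 were higher, and for Nampt and Nnmt 2 each. The shift was not particular to these genes. The median over all genes with a mean of at least 1 TPM was 2.47 to 2.75 in those 4 libraries and 1.52 to 2.46 in the other 15. Old cold replicate 4 was the lowest of the 19 libraries for 8 of the 10 genes, and also for 70.4% of all genes with a mean over 1 on the log2 scale. Depth relative to the deepest library ran from 6.98% to 100%. The reads recovered for the values of the 10 genes ran from 1 (Sirt4 in old cold replicate 4) to 16143 (Nampt). The marker genes of brown adipocytes were well expressed in every group, their summed level ranging from 2609 to 8310 TPM. The 4 skeletal muscle markers summed to between 0.189 and 845 TPM, with median log2 differences between old and young mice of -1.73 at room temperature and -2.08 in the cold and of 1.75 between cold and room temperature in young mice, although 0 of the 4 were called (limma). Of the 4 white adipocyte markers, 2 (Lep and Npr3) fell in young mice in the cold, where 16.3% of all genes fell. Their sum was 10.7 to 23.3 TPM against 18.5 to 49.5 TPM at room temperature, taken over the 4 markers. The part of these cells in the results below was not tested. In bulk tissue, fewer cells of a type and less RNA per cell cannot be told apart.

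Stretches in front of the start sites are shown for Sirt5 and Sirt7, which fell in the young mice in the cold, for Nampt as the gene that the circadian clock is known to drive, and for Sirt1 as the member whose promoter held a clock motif. The sequences are from RefSeq on GRCm38.p6, which had 11 promoters (250 bases before to 50 after a start site) of 9 of the 10 genes, Nnmt being the other. Only bases within 120 bases of the start site and outside annotated untranslated regions are printed, and the letters in capitals mark a motif, read on both strands.
Sirt1, chr10:63339051-63339155, minus strand: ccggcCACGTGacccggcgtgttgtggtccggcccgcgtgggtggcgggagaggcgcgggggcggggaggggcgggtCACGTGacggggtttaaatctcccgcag
Sirt5, chr13:43365415-43365495, plus strand: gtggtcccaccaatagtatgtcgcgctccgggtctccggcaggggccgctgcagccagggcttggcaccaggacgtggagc
Sirt7, chr11:120625015-120625116, minus strand: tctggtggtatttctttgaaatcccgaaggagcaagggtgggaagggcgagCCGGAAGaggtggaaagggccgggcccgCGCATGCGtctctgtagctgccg
Nampt, chr12:32820215-32820334, plus strand: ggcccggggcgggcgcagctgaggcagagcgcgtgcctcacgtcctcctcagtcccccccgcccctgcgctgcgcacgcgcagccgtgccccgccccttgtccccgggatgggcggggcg
In Sirt1 the capitals mark 2 E-boxes (CACGTG, bound by the clock proteins), whose first bases lie at positions -115 and -43 from the start site. Of 32851 promoters of this length, 7.15% held an E-box, and among the members' promoters 1 of 11 did. In Sirt7 the capitals mark an ETS motif (CCGGAAG) at position -51 and an NRF1 motif (CGCATGCG) at position -23. ETS motifs were in 8.86% and NRF1 motifs in 1.87% of all promoters, against 3 and 2 of the members' 11, and these motifs were chosen after the values had been seen. The cAMP response element TGACGTCA (1.79% of promoters) and the nuclear receptor half-site AAAGGTCA (1.51%) were in none of the members' promoters. Sirt5 and Nampt held no searched motif in these windows, and the median GC content was 61.0% in the members' promoters and 52.7% in all. A motif is a match of letters and was not tested for binding.

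Nampt was by far the most abundant of the 10 genes, with means of 108 ± 17.5 TPM in young mice at room temperature, 124 ± 14.5 TPM in young mice in the cold, 117 ± 29.7 TPM in old mice at room temperature and 96.1 ± 27.8 TPM in old mice in the cold (SD, n = 5, 5, 5 and 4). At room temperature the young mice followed with Sirt3 (18.9 TPM), Sirt5 (10.8), Nnmt (7.73), Sirt2 (5.83), Sirt1 (3.34), Sirt4 (1.81), Sirt7 (1.55), Cd38 (1.45) and Sirt6 (0.873). Neighbours in this order overlapped between libraries from Sirt5 to Nnmt and on to Sirt2, and again from Sirt4 down to Sirt6. The old mice at room temperature had the same order, with Sirt3 and Sirt5 also overlapping. In the cold Nnmt moved up to second place in both ages, at 67.8 ± 14.5 TPM in young mice and 35.0 ± 10.5 TPM in old mice.

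**Figure D1:**
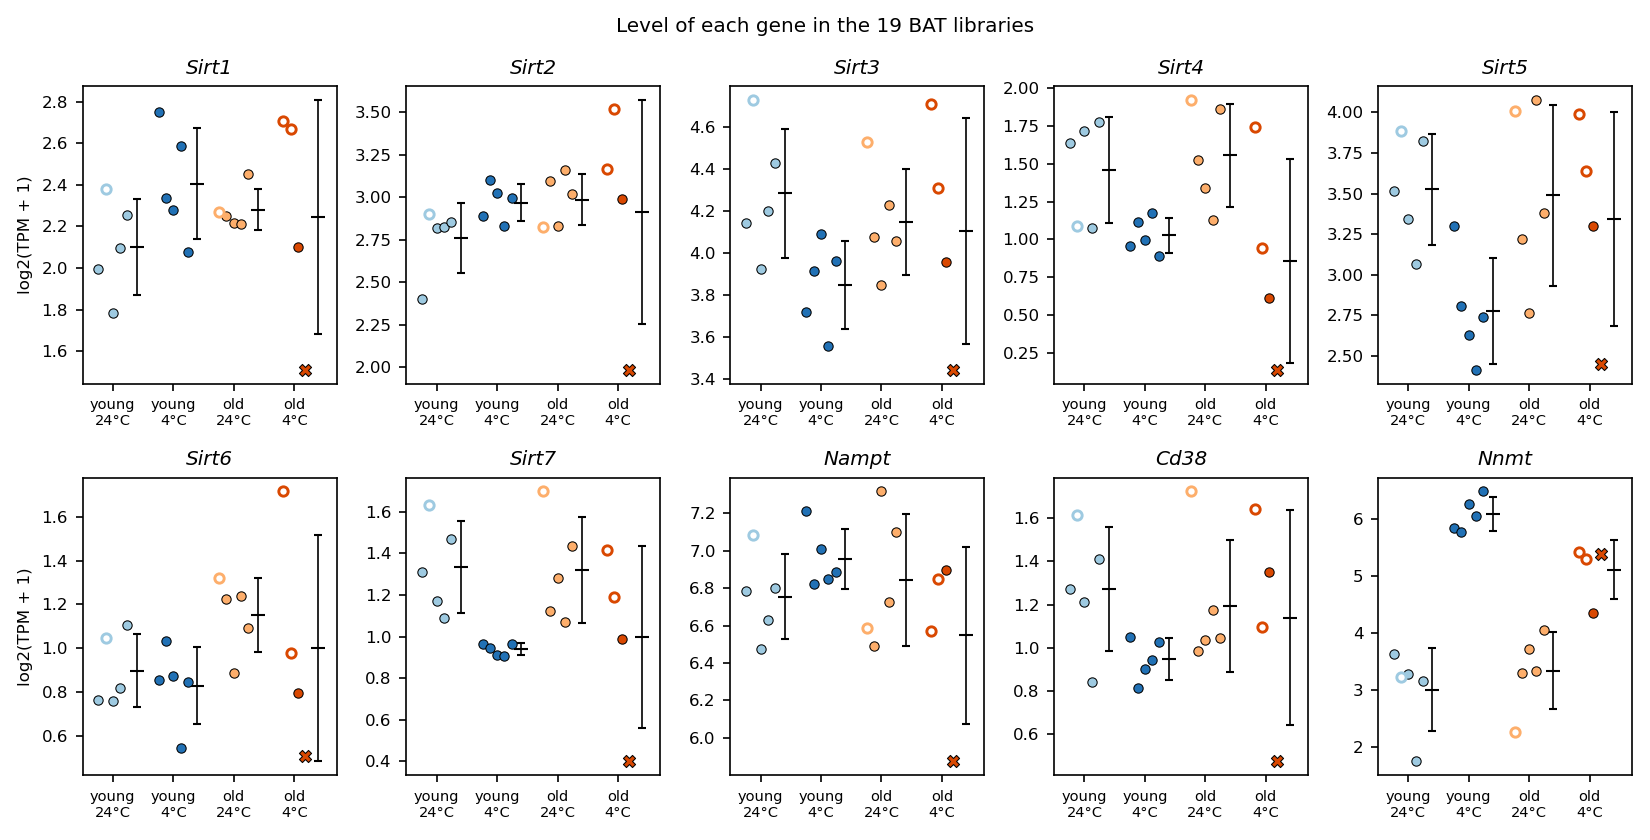
Level of each gene in every library in log2(TPM + 1), by group, each panel with its own vertical range; filled circles are libraries with high Gm20594, open circles those with low Gm20594, the cross is old cold replicate 4, and the bar beside each group is the mean with SD. Nnmt lies above its room temperature values in every cold library, and the cross is at the bottom for 8 of the 10 genes.

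Old mice were compared with young mice at each temperature. At room temperature 0 of the 10 genes passed an adjusted p under 0.05 (limma with Benjamini-Hochberg adjustment over 16233 genes), where 0% of all genes did, and 0 passed 0.25, where 0.715% did. Without adjustment, 1 of the 10 was under 0.05, where 7.81% of all genes were, and no member separated the ages without overlap, as 1.69% of all genes did. In the cold 0 of the 10 passed, where 0.0186% of 16134 genes did, and 0 passed 0.25, where 0.161% did. One of the 10, Nnmt, had an unadjusted p under 0.05 (5.26% of all genes) and was the 1 member without overlap (2.17% of all genes). With all 19 libraries fitted together and temperature as a term, again 0 of the 10 passed at 0.05 (0.0944% of all genes) or 0.25 (0.69%), and 0 were under 0.05 unadjusted (5.76%).

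**Figure D2:**
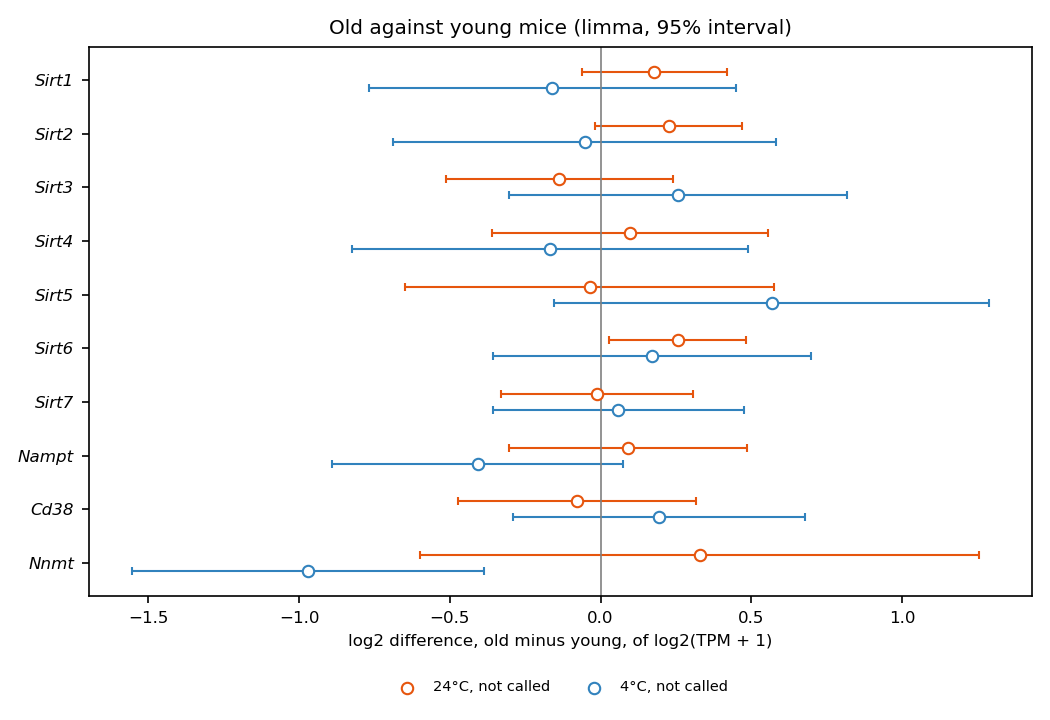
Log2 difference of each gene between old and young mice (old minus young) with its 95% interval from limma, at 24°C and at 4°C; open circles are differences that were not called. At 24°C the intervals of all members but Sirt6 include 0, and at 4°C those of all members but Nnmt.

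Nampt, the NAD+ salvage enzyme, differed between old and young mice by 0.09 at room temperature on the log2 scale (standard error 0.18, 95% interval -0.30 to 0.49, adjusted p = 0.965, limma). The young libraries at room temperature held 109, 135, 87.8, 98.2 and 111 TPM and the old ones 95.2, 88.9, 159, 105 and 136 TPM, so the ages overlapped, with the highest value in an old library and the lowest in a young one. In the cold the difference was -0.41 (standard error 0.21, 95% interval -0.89 to 0.08, adjusted p = 0.999, limma). Young mice in the cold had 148, 112, 128, 114 and 117 TPM and old mice 94.1, 114, 118 and 57.6 TPM. The last of these was old cold replicate 4, without which the difference was -0.18.

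Among the nuclear and cytosolic sirtuins, Sirt1 deacetylates transcription regulators such as PGC-1α and FOXO proteins. Its level at room temperature was 1.996, 2.38, 1.78, 2.10 and 2.25 on the log2 scale in young mice and 2.27, 2.25, 2.22, 2.21 and 2.45 in old mice. The old libraries lay close together inside the upper part of the young range, apart from replicate 5 above it, and the difference was 0.18 (95% interval -0.06 to 0.42). In the cold Sirt1 was at 2.75, 2.34, 2.28, 2.59 and 2.08 in young mice and at 2.71, 2.67, 2.10 and 1.51 in old mice, a difference of -0.16 (95% interval -0.77 to 0.45) that became 0.09 without old cold replicate 4.

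Sirt2, the mainly cytosolic tubulin deacetylase, differed by 0.23 at room temperature (95% interval -0.02 to 0.47, adjusted p = 0.689, limma) and by -0.05 in the cold (95% interval -0.69 to 0.58), the latter being 0.26 without old cold replicate 4. Sirt6, a chromatin-bound deacetylase, had the smallest unadjusted p at room temperature of the 10 genes. It was at 0.76, 1.05, 0.76, 0.82 and 1.10 on the log2 scale in young mice and at 1.32, 1.23, 0.89, 1.24 and 1.09 in old mice, so that 3 of the 5 old libraries were above every young one. Its difference of 0.26 had a standard error of 0.10 (adjusted p = 0.567, limma), and it rested on few reads, a median of 18 per library. In the cold it was 0.17 higher in old mice (95% interval -0.36 to 0.70), and -0.07 without old cold replicate 1. Sirt7, found in the nucleolus, differed by -0.01 at room temperature and by 0.06 in the cold (95% intervals -0.33 to 0.31 and -0.36 to 0.48).

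The mitochondrial sirtuins showed no called age difference either. Sirt3, the main mitochondrial deacetylase, differed by -0.14 at room temperature and by 0.26 in the cold (95% intervals -0.51 to 0.24 and -0.31 to 0.82). Sirt4 differed by 0.10 and -0.17 (95% intervals -0.36 to 0.56 and -0.82 to 0.49). Sirt5, which removes succinyl and malonyl groups, had the largest positive age difference of the 10 genes in the cold, 0.57 (standard error 0.31, 95% interval -0.15 to 1.29, adjusted p = 0.999, limma). Young mice in the cold had 8.83, 6.0, 5.18, 4.32 and 5.67 TPM of Sirt5 and old mice 14.9, 11.5, 8.83 and 4.46 TPM. The 2 highest values were the 2 old libraries with low Gm20594, and among libraries with high Gm20594 the difference was 0.10, with only 2 old libraries left.

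Cd38, an NAD+ glycohydrolase that immune cells express strongly, differed by -0.08 at room temperature and by 0.19 in the cold (95% intervals -0.47 to 0.32 and -0.29 to 0.68). Its TPM in the cold was 1.07, 0.758, 0.871, 0.922 and 1.04 in young mice and 2.12, 1.14, 1.55 and 0.389 in old mice. All but 1 of the old libraries were thus above every young one, and old cold replicate 4 was below all of them. The summed level of the 4 general immune cell markers was 1.92 to 4.49 TPM in young mice in the cold and 3.34 to 12.8 TPM in old mice in the cold. Of these 4, 0 were called (0.0186% of all genes, limma), although 2 of them, Ptprc and Coro1a, had an unadjusted p under 0.05 (5.26% of all genes). At room temperature the 4 markers summed to 3.22 to 7.77 TPM in young mice and to 4.75 to 12.2 TPM in old mice. The Cd38 difference at that temperature was -0.08. The part of immune cells in the level of Cd38 was not tested.

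Nnmt had the largest age difference in the cold. Young mice in the cold had 56.2, 53.5, 75.7, 65.2 and 88.6 TPM and old mice 41.6, 38.3, 19.3 and 40.6 TPM. Every old library was below every young one, and old cold replicate 3 was the lowest. The brown adipocyte markers of that library summed to 4530 TPM. They summed to 8310, 8131 and 5600 TPM in the other old libraries in the cold and to 6942 to 7832 TPM in the young ones. What this means for Nnmt was not tested. The age difference in Nnmt was -0.97 on the log2 scale (standard error 0.25, 95% interval -1.56 to -0.39), but did not pass the adjustment over all genes (adjusted p = 0.465, limma). The estimate ran from -1.22 to -0.87 over 12 alternatives (adjusted p 0.0779 to 1, limma) and from -1.07 to -0.72 without each library in turn. Because the groups did not overlap, leaving out 1 library could not change the sign. Some alternatives, such as the trended and robust prior, cannot move the estimate at all. At room temperature Nnmt was at 11.3, 8.41, 8.70, 2.35 and 7.86 TPM in young mice and at 3.82, 8.88, 12.2, 9.00 and 15.7 TPM in old mice, a difference of 0.33 with overlapping groups (95% interval -0.60 to 1.26, adjusted p = 0.932, limma).

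**Figure D3:**
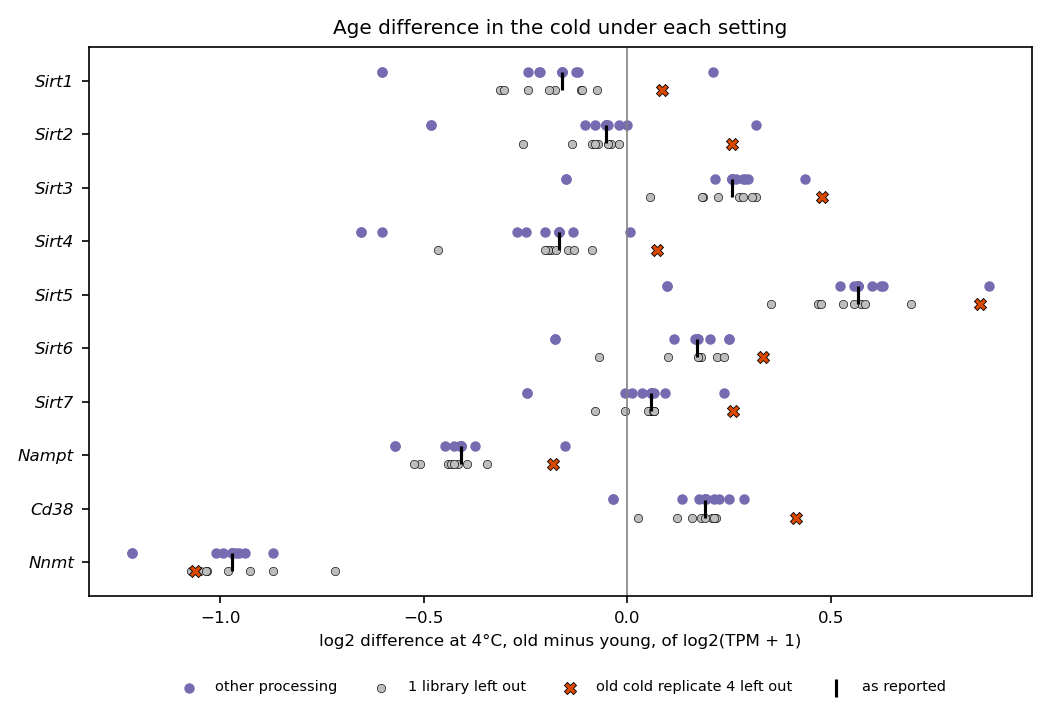
Log2 difference between old and young mice in the cold (old minus young) for each gene as reported (vertical bar), under other processing (upper points) and with 1 library left out (lower points); the cross leaves out old cold replicate 4. Nnmt stays between -1.22 and -0.72, whereas Sirt1, Sirt2, Sirt4, Sirt6 and Sirt7 have points on both sides of 0, as do Sirt3 and Cd38 under other processing.

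Cold was compared with room temperature within each age. In young mice 3 of the 10 genes passed an adjusted p under 0.05 (limma), where 25.9% of 16501 genes did: 1 was higher (9.61% of all genes) and 2 were lower (16.3%). The balance over all genes turned with the scaling, from 1585 higher and 2694 lower as reported to 3468 higher and 1856 lower when libraries were centred on their medians. At 0.25 there were 8 of 10 (44.3% of all genes), 6 of 10 had an unadjusted p under 0.05 (36.1%), and 2 did not overlap between the temperatures (19% of all genes). In old mice 0 of the 10 passed at 0.05 (0.0253% of 15833 genes), 1 passed at 0.25 (1.43%), and 1 each had an unadjusted p under 0.05 (8.7%) and no overlap (3.16%), which was Nnmt each time. These comparisons within young and old mice share no library with each other, but each shares its libraries with the age comparisons above.

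Nnmt rose in the cold in young mice, by 3.07 on the log2 scale (standard error 0.33, 95% interval 2.34 to 3.81, adjusted p = 0.000203, limma), which is 8.42-fold on the scale of TPM + 1. Its lowest young library in the cold, 53.5 TPM, was far above its highest at room temperature, 11.3 TPM. In old mice the difference was 1.77 (standard error 0.38, 95% interval 0.90 to 2.64, adjusted p = 0.173, limma), or 3.42-fold, with 19.3 TPM as the lowest cold value and 15.7 TPM as the highest at room temperature. The call in old mice depended on the processing, since 5 of 12 alternatives put the adjusted p under 0.05 (limma, range 0.00165 to 0.547). The old minus the young response was -1.30 (interaction of age and temperature, standard error 0.52, 95% interval -2.40 to -0.20, adjusted p = 0.914, limma). That was the 1 member with an unadjusted p under 0.05 in the interaction (4.94% of all genes), while 0 passed 0.05 (0.0118%) or 0.25 (0.106%) after adjustment. Over the 19 libraries the genes whose level followed Nnmt most closely, of 8202 compared, were Dio2 (Pearson r = 0.948), Cldn1 (0.927) and Lipg (0.926). Dio2 is the deiodinase that activates thyroid hormone in BAT. The likeness includes the differences between the groups and the shifts of whole libraries.

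**Figure D4:**
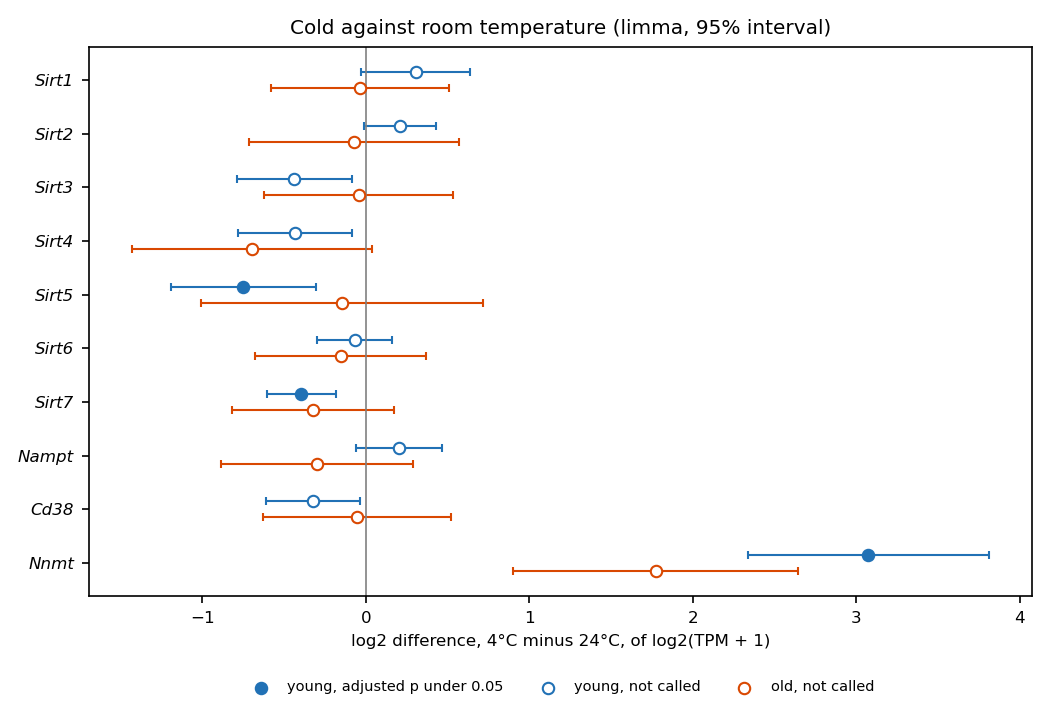
Log2 difference of each gene between 4°C and 24°C (cold minus room temperature) with its 95% interval from limma, in young and in old mice; filled circles are differences with an adjusted p under 0.05. Nnmt lies at 3.07 in young and 1.77 in old mice, Sirt5 and Sirt7 are the other filled circles, and the intervals of the old mice are wider for all 10 genes.

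Sirt5 fell in the cold in young mice. It was at 10.4, 13.8, 9.13, 7.35 and 13.2 TPM at room temperature and at 8.83, 6.0, 5.18, 4.32 and 5.67 TPM in the cold. Only cold replicate 1 reached into the room temperature range. The difference was -0.75 on the log2 scale (standard error 0.20, adjusted p = 0.0212, limma), and the adjusted p was 0.0505 without cold replicate 4 and 0.125 with all 19 libraries in one fit. In old mice Sirt5 was at 15.1, 8.30, 5.77, 15.9 and 9.39 TPM at room temperature and at 14.9, 11.5, 8.83 and 4.46 TPM in the cold, a difference of -0.14 (95% interval -1.01 to 0.72). The difference between the ages in this response was 0.60 (95% interval -0.30 to 1.51, adjusted p = 0.998, limma), so a smaller change in old mice was not detected. The closest genes over the 19 libraries were Tmem14c (Pearson r = 0.957), Tsfm (0.943) and Ptges2 (0.918). That likeness includes the differences between the groups and the shifts of whole libraries, for which the values were not corrected.

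Sirt7 also fell in young mice in the cold. It was at 1.48, 2.10, 1.25, 1.13 and 1.77 TPM at room temperature and at 0.954, 0.928, 0.880, 0.877 and 0.949 TPM in the cold. The cold libraries were tightly grouped and all below the room temperature libraries. The difference was -0.40 on the log2 scale (standard error 0.09, adjusted p = 0.0129, limma), passing without each library in turn (adjusted p at most 0.0323, limma) and not with all 19 libraries in one fit (0.141). Without the room temperature library with low Gm20594, the highest for Sirt7, it was -0.32 (adjusted p = 0.0122, limma). In old mice Sirt7 was at 2.25, 1.18, 1.43, 1.10 and 1.71 TPM at room temperature and at 1.67, 1.28, 0.983 and 0.319 TPM in the cold, a difference of -0.32 (95% interval -0.82 to 0.17). The annotation lets exons of Sirt7 overlap those of Mafg on the same strand, and reads there could count for either gene. The genes closest to Sirt7 were Ift46 (Pearson r = 0.946), Tceanc (0.944) and Coq9 (0.936), again with group differences and shifts of whole libraries included.

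The other 7 genes were not called in young mice. Sirt3 (-0.44, adjusted p = 0.0697) and Sirt4 (-0.43, adjusted p = 0.0688) had lower means in the cold by limma, as had Cd38 (-0.32, adjusted p = 0.0959). Sirt1 (0.30, adjusted p = 0.175), Sirt2 (0.21, adjusted p = 0.160) and Nampt (0.20, adjusted p = 0.263) had higher means in the cold by limma, and Sirt6 was at -0.07. Nampt passed the test when libraries were centred on their medians (0.34, adjusted p = 0.0120, limma), so whether it changed with temperature depended on the scaling. In old mice the largest of the uncalled sirtuin differences was that of Sirt4, -0.70 (95% interval -1.43 to 0.04), whose cold libraries held 2.35, 0.918, 0.528 and 0.0978 TPM, the last of them a single read. Sirt3, Psmd13 and Ric8a, and likewise Sirt2 and Nfkbib, share exon positions on opposite strands, and whether strand was used in counting is not given in the sources used here.

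The sirtuin mRNAs together came to 43.0 ± 8.19 TPM in young mice at room temperature, 33.5 ± 2.80 TPM in young mice in the cold, 43.5 ± 8.12 TPM in old mice at room temperature and 41.2 ± 17.3 TPM in old mice in the cold (SD, n = 5, 5, 5 and 4). Shares within this sum do not depend on the scaling of a library. Sirt3 made up the largest share in each group, between 39.1% and 43.6% on average. In young mice Sirt5 held 24.9 ± 2.92% at room temperature and 17.8 ± 4.00% in the cold, and Sirt1 held 7.76 ± 0.73% and 13.2 ± 3.34%. In old mice the same shares were 24.3 ± 5.97% and 23.8 ± 1.20% for Sirt5, and 9.15 ± 1.82% and 9.63 ± 0.83% for Sirt1. All 5 young cold libraries had a higher Sirt1 share than any young room temperature library (9.75% to 17.4% against 6.78% to 8.84%). The Sirt2 share was likewise higher without overlap (17.9% to 21.8% against 11.1% to 16.9%). The Sirt7 share was lower without overlap, though narrowly (2.53% to 3.04% against 3.05% to 3.87%). These shares are a description with no test.

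**Figure D5:**
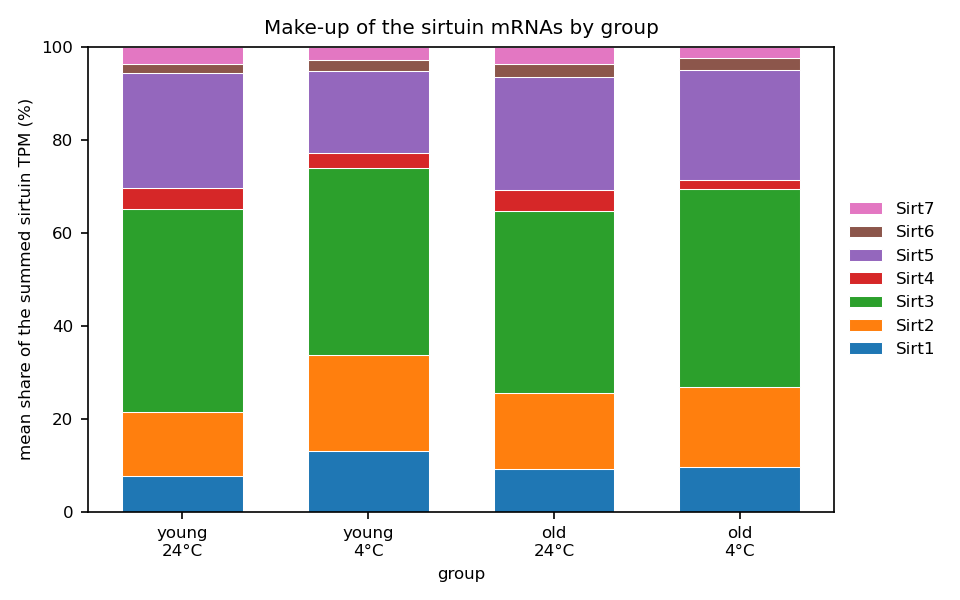
Mean share of each sirtuin in the summed TPM of Sirt1 to Sirt7, by group (n = 5, 5, 5 and 4), stacked from Sirt1 at the bottom to Sirt7 at the top. Sirt3 is the largest share in each group, and Sirt5 is smallest in young mice in the cold, at 17.8%.

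The wider NAD+ pathway was described from lists of genes. Besides the members (Nampt, Cd38 and Nnmt also stand in these lists), 63 of the listed genes were tested. Between old and young mice 0 of the 63 were called by limma at either temperature, with an unadjusted p under 0.05 for 5 at room temperature (7.81% of all genes) and for 3 in the cold (5.26% of all genes), shares close to those of all genes, and the medians of the 6 lists lay between -0.16 and 0.12 at room temperature and between -0.12 and 0.18 in the cold. Of the 9 tested genes of NAD+ salvage and phosphorylation, 3 fell in young mice in the cold (16.3% of all genes) and 0 rose (9.61%; median -0.01 on the log2 scale, against -0.02 for all genes): Nmrk1, a nicotinamide riboside kinase (-0.73, adjusted p = 0.00028), Nadk, the cytosolic NAD+ kinase (-0.38, adjusted p = 0.0298), and Nt5e, the ecto-nucleotidase CD73 (-0.33, adjusted p = 0.0472), all by limma. Of the 8 tested genes of the routes from nicotinic acid and tryptophan, 1 fell (16.3% of all genes), Nadsyn1, the NAD+ synthetase (-0.43, adjusted p = 0.0167, limma; median of the list -0.02).

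Of 14 tested NAD+ consumers other than sirtuins, 7 fell in young mice in the cold (16.3% of all genes), 1 rose (9.61%) and 6 were not called (median -0.28, against -0.02 for all genes). Parp1, the DNA damage sensor and main poly(ADP-ribose) polymerase, fell by 0.95 (adjusted p = 0.000641, limma). Parp9 fell by 1.08, Parp10 by 1.03 and Parp14 by 0.56, whereas Parp4 rose by 0.47 (adjusted p 0.00131 or less, limma). Among the 6 tested genes of nicotinamide clearance and NAD+ transport and redox, Nnmt and Slc25a51, the mitochondrial NAD+ carrier, rose, the latter by 0.67 (adjusted p = 0.00168, limma), and Nudt13, a mitochondrial pyrophosphatase, fell by 0.71 (adjusted p = 0.0162, limma). The median of that list was -0.01. In old mice 0 genes of these 4 lists were called at 0.05 by limma (0.0253% of all genes). Besides Nnmt, 1 gene, an NAD+ consumer, had an unadjusted p under 0.05 (8.7% of all genes).

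Substrates and partners of the sirtuins included 5 that rose (9.61% of all genes) and 2 that fell (16.3%) among 17 tested in young mice in the cold (median 0.11, against -0.02 for all genes). Ppargc1a, the coactivator PGC-1α and a Sirt1 substrate, rose by 4.36 (adjusted p = 1.81e-06, limma), Foxo1 by 1.08, Foxo3 by 0.57 and Ucp1, the uncoupling protein of BAT, by 1.33, while the acetyl-CoA synthetase Acss2 fell by 1.502 (adjusted p = 0.00176 or less for these, limma). In old mice 1 of the 17 was called (0.0253% of all genes), Ppargc1a, which rose by 4.05 (adjusted p = 0.0105, limma). An unadjusted p under 0.05 was found for 4 of the 17 in old mice (8.7% of all genes, limma). Of 12 clock genes, 4 rose (9.61% of all genes) and 3 fell (16.3%) in young mice (median 0.19, against -0.02 for all genes). Arntl (1.71), Per1 (1.22) and Per2 (0.59) were among those that rose, and Per3 (-2.004) and Dbp (-1.49) among those that fell (adjusted p 0.000598 or less, limma). In old mice 0 of 12 were called (0.0253% of all genes), and 2 had an unadjusted p under 0.05 (8.7% of all genes, limma). The time of day at which tissue was taken is not given in the sources used here.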

How the data were processed

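Total RNA of BAT was extracted, depleted of rRNA and sequenced. The labels name TRIzol and a stranded total RNA kit, whereas the study's methods name an RNeasy and a stranded mRNA kit, so this step is not settled. Reads were, per the labels, 50-base single reads, except young room temperature replicate 2, which is labelled paired-end. Alignment was done by the authors with Rsubread, and log2 TPM values were deposited, with edgeR, limma 3.20.9 and R 3.2.2 named in the submitters' processing notes. The low values show that the deposited log2 values are log2(TPM + 1). A human reference is named in the study's methods although the identifiers are those of mouse genes, so the build is not settled. Coordinates are from GENCODE M21 on GRCm38, and promoters from RefSeq.

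The deposited values were fitted with limma 3.58.1 in R 4.3.3 after leaving out genes at 0 in all libraries fitted, with 2-sided moderated tests and Benjamini-Hochberg adjustment over all genes tested. Genes with an adjusted p under 0.05 were called. Each comparison was fitted on its own libraries, and the pooled age difference and the interaction on all 19. The labels assign as many mice to the groups as there are libraries (10 young and 9 old), so each library was taken as a mouse. Reads per value were recovered from the steps between low values, as whole numbers by construction. That they are whole is therefore no check on the counts. Depth is known only relative to the deepest library, and Sirt4, Sirt6 and Cd38 rest on few reads. The procedure was tested on simulated data. Other steps used Python 3.11.15, numpy 2.4.6, pandas 2.3.3 and matplotlib 3.10.9.

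All 10 members were named, with up to 5 genes of each pathway list per comparison by adjusted p, and the 3 genes most correlated with each called member among genes with a mean of at least 1 TPM. The members and lists were chosen with earlier results of these data known. Same-numbered libraries of old and young mice in the cold deviated from their group means together, though weakly (correlations 0.101 to 0.22, 4 of 4 over 0.1). Elsewhere the correlations had both signs: -0.211 to 0.232 between ages at room temperature, -0.155 to 0.196 between temperatures in young mice, and -0.0272 to 0.374 in old mice. The fits as reported did not pair libraries, and pairing by number was used only as an alternative, the replicate block. The alternatives kept only genes with a mean of at least 1 TPM, used a pseudocount of 0.1, centred libraries on their medians, quantile normalized them or gave them equal sums without Gm20594. Others used a trended and robust prior, library weights, a single fit of all 19 libraries, a replicate block, a covariate for low or high Gm20594, only libraries with high Gm20594, a threshold of 0.25, or left out each library. Median centring on genes of at least 1 TPM was added after the data had been seen.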

Additional observations from a re-analysis of the deposited data

Results flagged for a closer look

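Of 40 sets of values (10 genes in 4 groups), 5 held a library far from the others of its group by Dixon's criterion, which chance gives in about 1 set in 20. All values are on the log2(TPM + 1) scale. Sirt1 in old room temperature replicate 5 was the highest of its group at 2.45, the next being 2.27. Sirt2 in young room temperature replicate 1 was the lowest at 2.40, the next being 2.82. Cd38 in old room temperature replicate 1, a library with low Gm20594, was the highest at 1.73, the next being 1.17. Nnmt in young room temperature replicate 4 was the lowest at 1.74, the next being 3.15, and rested on 14 reads. Nnmt in old cold replicate 3 was the lowest at 4.35, the next being 5.30, and without that library the age difference in the cold was -0.72.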

How the results depend on the processing

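In all 3 age comparisons and the interaction, 0 of the 10 genes were called under every alternative, at 0.25, with the replicate block (paired fit; 0 in each) and without each library. In young mice in the cold the count of members called was 3 as reported (all genes: 1585 higher and 2694 lower of 16501) and 3 with the replicate block (1231 and 1999). It was 5 among genes with a mean of at least 1 TPM (1466 and 1953 of 8130). Median centring gave 6 (3468 and 1856), equal sums without Gm20594 gave 6 (1831 and 3607) and library weights gave 5 (1755 and 3141). All 19 libraries in one fit gave 1 (619 and 1139 of 16957), and median centring on genes of at least 1 TPM gave 7 (2084 and 2768). At 0.25 the count was 8 (44.3% of all genes), and with 1 library left out it was 2 to 5 (5 without young room temperature replicate 4). In old mice the count was 0 as reported (all genes: 3 higher and 1 lower of 15833) and 0 with the replicate block (0 and 0). It was 1 (Nnmt) among genes with a mean of at least 1 TPM (90 and 54 of 8255), with median centring (427 and 162) and with library weights (725 and 232). Nnmt was also the 1 member with all 19 libraries in one fit (166 and 335 of 16957) and with median centring on genes of at least 1 TPM (294 and 154). At 0.25 it was again Nnmt alone (1.43% of all genes). Median centring moved the median log2 difference of all genes in young mice from -0.02 to 0.12. For these changes the cause was not tested.

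Differences that changed sign were uncalled as reported and in every alternative, though some ranged widely. Between old and young mice at room temperature, Sirt4 was at -0.087 among libraries with high Gm20594, and with 1 library left out Sirt5 ran from -0.18 to 0.15, Sirt7 from -0.11 to 0.062, Nampt from -0.028 to 0.18 and Cd38 from -0.21 to 0.0076. In the cold, library weights put Sirt1 at 0.21, Sirt2 at 0.32 and Sirt4 at 0.0066, and equal sums without Gm20594 put Sirt7 at -0.0054. At the other end, the alternatives reached -0.60 for Sirt1, -0.48 for Sirt2 and -0.65 for Sirt4. With a covariate for low or high Gm20594, and likewise with high Gm20594 only, Sirt3 was at -0.15, Sirt6 at -0.18, Sirt7 at -0.25 and Cd38 at -0.035, and the pooled difference of Sirt5 was -0.0046 with high Gm20594 only. With 1 library left out in the cold, Sirt1 ran from -0.31 to 0.086, Sirt2 from -0.26 to 0.26, Sirt4 from -0.46 to 0.073, Sirt6 from -0.069 to 0.33 and Sirt7 from -0.080 to 0.26.

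For cold against room temperature in young mice, Sirt6 was at 0.069 with median centring, 0.064 with quantile normalization and -0.12 to 0.0019 with 1 library left out. In old mice median centring put Sirt1 at 0.11, Sirt2 at 0.078, Sirt3 at 0.10, Sirt5 at 0.0042 and Cd38 at 0.10. Quantile normalization put Sirt1 at 0.052 and Cd38 at 0.078, and the replicate block put Sirt1 at 0.0085. Library weights put Sirt1 at 0.28, Sirt2 at 0.30, Sirt3 at 0.18, Sirt5 at 0.17, Nampt at 0.021 and Cd38 at 0.091. Median centring on genes of at least 1 TPM put Sirt1 at 0.053, Sirt2 at 0.017, Sirt3 at 0.044 and Cd38 at 0.035. At the other end, the alternatives in old mice reached -0.48 for Sirt1, -0.54 for Sirt2, -0.35 for Sirt3, -0.49 for Sirt5, -0.52 for Nampt and -0.22 for Cd38. With 1 library left out, Sirt1 ran from -0.19 to 0.21, Sirt2 from -0.27 to 0.24, Sirt3 from -0.25 to 0.18, Sirt5 from -0.36 to 0.15, Sirt6 from -0.39 to 0.0096 and Cd38 from -0.22 to 0.17, the positive end being reached without old cold replicate 4 in each case.

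Sirt4, Sirt6 and Cd38 had medians of 26, 18 and 26 reads per library, and the effect of depth on their differences was not tested.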
